A study of Mus musculus with 14 samples.

Results

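The genes described here sense iron in the cell, store it, or let it out. They were Aco1, Ireb2, Fbxl5, Fth1, Ftl1, Ncoa4, Slc40a1, Cp and Heph, taken by name with every probe set annotated to them. The rule that picks the probe sets uses no measured value, and the genes were chosen with earlier results of these data known. These 9 genes had 23 of the 45037 probe sets tested on each array. There were 8 for Cp, 3 each for Aco1 and Ftl1, 2 each for Fth1, Ncoa4 and Slc40a1, and 1 each for Ireb2, Fbxl5 and Heph. Probe sets annotated to a single gene covered 18193 genes, and Ftl1 is not among those. A probe set is a group of short probes read as a single log2 signal. All 3 Ftl1 probe sets were also annotated to the pseudogene Ftl1-ps2, so their signal cannot be assigned to either and they are called Ftl1/Ftl1-ps2.

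The study asked how loss of transferrin-bound iron uptake affects dopaminergic neurons. Tfr1, the receptor encoded by Tfrc, carries transferrin iron into cells. Tfr1-null mice (Tfr1ΔDN) had Tfr1 deleted in dopaminergic neurons alone, and the controls carried the Tfr1 allele in heterozygous form. The driver of the deletion is not named in the sources used here. Both genotypes were on a RiboTag background, in which a tagged ribosomal protein lets the ribosomes of one cell type be pulled out of a tissue lysate with their mRNA. All animals were F2 mice of a 129Sv and C57BL/6 cross, and the lysates were of fresh ventral midbrain. Libraries numbered 4 for Tfr1-null and 3 for control at 3 weeks of age, and 3 for Tfr1-null and 4 for control at 10 weeks. The labels call the earlier age early and the later age late neurodegeneration. They do not say that replicates were separate animals, so p-values measure the spread between these samples, which may be partly technical. With 3 or 4 arrays a group, the precision of each difference is limited by their number.

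Iron regulatory proteins bind hairpins called iron-responsive elements when iron is scarce. In the 5′ untranslated region of ferritin and ferroportin mRNA this binding blocks translation, and in the 3′ untranslated region of Tfrc mRNA it slows decay. Ferritin is a hollow shell of heavy and light subunits that holds iron, NCOA4 delivers it to the lysosome for breakdown, and ferroportin passes iron out of the cell with help from the copper ferroxidases ceruloplasmin and hephaestin. In dopaminergic neurons iron is also the cofactor of tyrosine hydroxylase, which makes the precursor of dopamine. The arrays measured mRNA on tagged ribosomes, not protein, and not the activity of an iron regulatory protein.

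Tfrc itself gave the check of the labels, through 3 array control probe sets at its 5′ end, middle and 3′ end. At 3 weeks the middle probe set read 10.70 to 10.98 in 3 Tfr1-null libraries, against 8.80 to 8.86 in the 3 control libraries. The library labelled Tfr1-null 3 weeks 1 read 8.82, and its source name calls it control. At 10 weeks the middle probe set read 11.39 to 11.69 in the Tfr1-null libraries, against 9.17 to 9.86 in 3 control libraries, and the library labelled control 10 weeks 1 read 11.43. The 5′ probe set ran the other way, at 6.88 to 7.73 in the 3 Tfr1-null libraries of 3 weeks and 9.50 to 9.59 in controls, with 9.67 in the library labelled Tfr1-null 3 weeks 1. Results are therefore given for 12 libraries without these 2 and for the 14 as labelled. Because the 2 libraries stand out by Tfrc, Tfrc differences over 12 libraries are a description. Array medians were 6.41 to 6.47 at 3 weeks and 7.36 to 7.43 at 10 weeks, so the ages sit on different scales and levels are compared only within an age. Of the 8 dopaminergic markers, Th, Slc6a3, Slc18a2, Ddc, Pitx3, Nr4a2, En1 and Foxa2, none was below background throughout a group, where below background means that each library of the group reads under its array's 25th percentile. By Xist against Eif2s3y, 1 of 7 libraries of 3 weeks, a control, and 7 of 7 of 10 weeks had the male pattern.

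Over the 12 libraries, 2 of the 5 Fth1 and Ftl1/Ftl1-ps2 probe sets were called lower in Tfr1-null libraries at 3 weeks and 3 at 10 weeks. These 5 are named the ferritin probe sets below, although the Ftl1/Ftl1-ps2 signal cannot be assigned to the gene or the pseudogene. No probe set of the other genes passed the test. The Ftl1/Ftl1-ps2 signal fell at 3 weeks to 0.611 times the control level and at 10 weeks to 0.497 times, by its brightest probe set. A second Fth1 probe set, for the heavy subunit, fell at 10 weeks to 0.574 times the control level. Called means an adjusted p under 0.05 from limma with Benjamini-Hochberg adjustment over all 45037 probe sets, two-sided. At 3 weeks 2 of the 23 probe sets were called, both lower, where 0.797% of all probe sets were called in either direction and 0.469% lower. At 10 weeks 3 of 23 were called, all lower, where 6.76% were called in either direction and 3.54% lower. Over the 14 libraries as labelled 0 of 23 were called at either age. There the background was 0.0% at 3 weeks and 0.377% at 10 weeks, and an unadjusted p under 0.05 was reached by 1 of 23 at 3 weeks (3.62% of all probe sets) and by 4 of 23 at 10 weeks (17.2%). In this bulk readout of RNA on ribosomes, fewer cells of a type, less RNA per cell and fewer ribosomes on that RNA cannot be told apart.

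**Figure D1:**
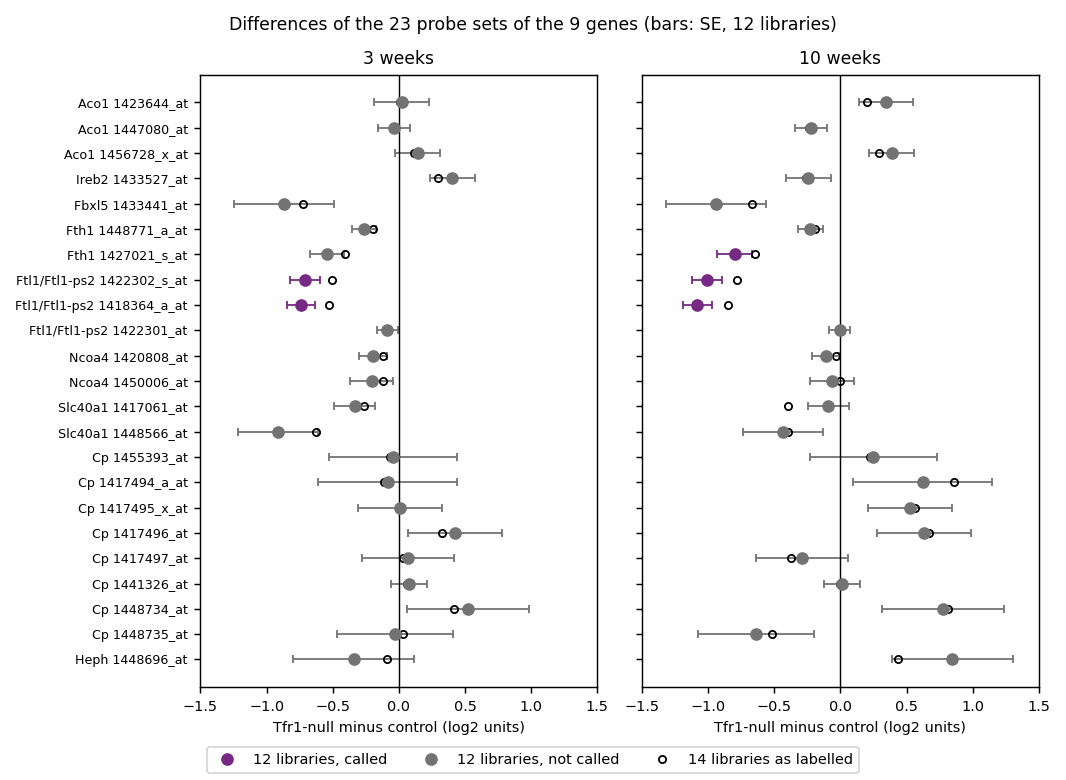
Differences of the 23 probe sets, Tfr1-null minus control in log2 units on the horizontal axis, at 3 weeks and at 10 weeks. Dots with bars are the estimate and its standard error over 12 libraries, purple where called and grey where not, and open circles are the estimates over 14 libraries. The called probe sets, 2 at 3 weeks and 3 at 10 weeks, all lie below 0 and are all of Ftl1/Ftl1-ps2 or Fth1.

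The ferritin genes are shown with the promoter letters before their starts because the called probe sets are annotated to them. The bases come from RefSeq on GRCm38.p6, where 6 of the 9 genes had a promoter window. The Fth1 window lies at chr19:9982396-9982645 on the plus strand, before the downstream of its annotated starts. The Ftl1 window lies at chr7:45459887-45460136 on the minus strand. Capitals mark GC boxes (GGGCGG, or CCGCCC on the other strand), CCAAT boxes (here as ATTGG on the other strand) and the letters GCGTG of a hypoxia response element core (here as CACGC).
Fth1: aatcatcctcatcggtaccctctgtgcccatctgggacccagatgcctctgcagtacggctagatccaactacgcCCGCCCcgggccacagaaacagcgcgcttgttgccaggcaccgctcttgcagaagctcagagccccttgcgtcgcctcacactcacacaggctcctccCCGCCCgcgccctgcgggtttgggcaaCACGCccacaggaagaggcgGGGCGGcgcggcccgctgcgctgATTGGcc
Ftl1: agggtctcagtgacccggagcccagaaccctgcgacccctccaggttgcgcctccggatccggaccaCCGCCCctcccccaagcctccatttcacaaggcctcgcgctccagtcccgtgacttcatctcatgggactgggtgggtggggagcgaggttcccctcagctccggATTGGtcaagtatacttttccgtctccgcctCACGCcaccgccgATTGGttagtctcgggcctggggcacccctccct
Fth1 held 3 GC boxes, 1 CCAAT box and 1 GCGTG core, and Ftl1 held 1 GC box, 2 CCAAT boxes and 1 GCGTG core. The GCGTG core began 50 bases before the start in Fth1 and 47 before it in Ftl1. Of the 32851 promoter windows of the same length in the table, 32.7% held a GC box, 33.9% a CCAAT box and 28.2% GCGTG, on either strand. The letters TATAAA, TGACNNNGC (an antioxidant response element core) and ACGTG were searched on both strands too and are not in these windows. The window before the upstream Fth1 start, chr19:9980350-9980599, is not shown. It holds TATAAA on the other strand, as TTTATA, beginning 124 bases before that start. These matches describe letters only, and the iron-responsive elements lie in the transcripts, outside the letters shown.

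Ftl1 encodes ferritin light chain, the subunit that favours formation of the iron core. Its brightest probe set, 1422302_s_at, read 11.18, 10.42, 10.20 and 10.49 in Tfr1-null libraries 1 to 4 of 3 weeks, against 11.19, 11.01 and 11.04 in the controls. Tfr1-null library 1, the doubtful one, lay among the controls and the other 3 lay below every control. Without it the means were 10.37 ± 0.15 in Tfr1-null and 11.08 ± 0.10 in control libraries (SD, n = 3 each), a fall by 0.71 log2 units (SE 0.11, limma adjusted p = 0.0122). Leaving out control 1, control 3, Tfr1-null 2 or Tfr1-null 3 as well ended the call, with adjusted p-values of 0.0743, 0.0551, 0.0503 and 0.0610. With all libraries the difference at 3 weeks was -0.51 (SE 0.25, adjusted p = 1.00).

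At 10 weeks the same Ftl1/Ftl1-ps2 probe set read 11.39, 11.15 and 11.28 in Tfr1-null libraries, against 11.38, 12.32, 12.34 and 12.19 in controls. Control library 1, the doubtful one, sat inside the Tfr1-null range, and the other 3 controls lay above every Tfr1-null library. The means without it were 11.27 ± 0.12 in Tfr1-null and 12.28 ± 0.08 in control libraries (SD, n = 3 each), a fall by 1.01 log2 units (SE 0.11, adjusted p = 0.000682). As labelled the 10-week difference was -0.78 (SE 0.25, adjusted p = 0.143).

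A second Ftl1/Ftl1-ps2 probe set, 1418364_a_at, repeated both calls. It read 10.97, 10.18, 10.01 and 10.21 in Tfr1-null libraries of 3 weeks, against 10.92, 10.80 and 10.90 in controls. The 10-week values were 10.78, 10.51 and 10.58 in Tfr1-null libraries, against 10.78, 11.74, 11.81 and 11.56 in controls. The doubtful Tfr1-null library was the highest of its age, above the controls, and the doubtful control lay just above the highest Tfr1-null library. Over 12 libraries it fell by 0.74 at 3 weeks (SE 0.11, adjusted p = 0.00899) and by 1.08 at 10 weeks (SE 0.11, adjusted p = 0.000396), which left 0.599 and 0.472 times the control level. Its 3-week call ended without control 1, control 3 or Tfr1-null 3, with adjusted p-values of 0.0545, 0.0540 and 0.0537. The third, 1422301_at, was dimmer and nearly flat, at 6.24 to 6.29 in Tfr1-null and 6.27 to 6.41 in control libraries of 3 weeks. Its 10-week values were 7.37 to 7.43 in Tfr1-null and 7.37 to 7.48 in control libraries, so the Ftl1/Ftl1-ps2 probe sets disagreed.

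Fth1 encodes ferritin heavy chain, the subunit whose ferroxidase site oxidises iron as it enters the shell. Its brightest probe set, 1448771_a_at, read 12.81, 12.58, 12.57 and 12.49 in Tfr1-null libraries of 3 weeks, against 12.85, 12.79 and 12.78 in controls. At 10 weeks it read 13.72, 13.44 and 13.63 in Tfr1-null libraries, against 13.69, 13.89, 13.81 and 13.77 in controls. Without the doubtful libraries every Tfr1-null value lay below every control value at both ages, with differences of -0.26 (SE 0.09, adjusted p = 0.395) and -0.23 (SE 0.09, adjusted p = 0.184), and neither was called.

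The other Fth1 probe set, 1427021_s_at, showed larger differences. It read 11.30, 10.72, 10.95 and 10.66 in Tfr1-null libraries of 3 weeks, against 11.33, 11.21 and 11.41 in controls. In animals of 10 weeks it read 12.44, 11.97 and 12.26 in Tfr1-null libraries, against 12.41, 13.01, 13.06 and 13.00 in controls. The 3 undoubted controls of 10 weeks were tightly grouped above all Tfr1-null libraries, and the doubtful control lay within the Tfr1-null range. Over 12 libraries the 10-week means were 12.22 ± 0.24 in Tfr1-null and 13.02 ± 0.03 in control libraries (SD, n = 3 each), a fall by 0.80 log2 units (SE 0.13, adjusted p = 0.00565). At 3 weeks the difference was -0.54 (SE 0.13, adjusted p = 0.113), or 0.687 times the control level, and was not called. As labelled the 10-week difference was -0.65 (SE 0.19, adjusted p = 0.120). With the libraries of 10 weeks fitted alone, this difference over the undoubted libraries had an adjusted p of 0.105.

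**Figure D2:**
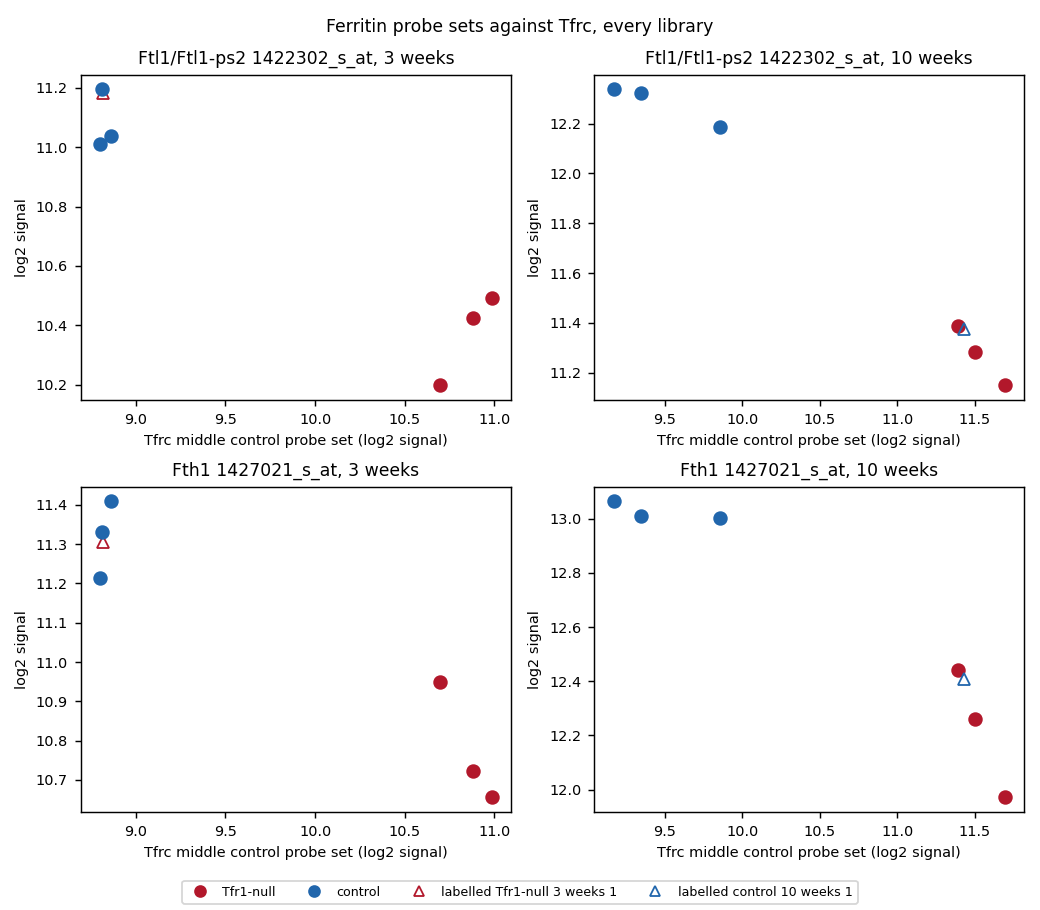
Log2 signal of ferritin probe sets in each library, on the vertical axis, against the middle Tfrc control probe set, on the horizontal axis, at 3 and at 10 weeks. Red points are Tfr1-null and blue points control, and open triangles are the 2 doubtful libraries. At each age the open triangle lies with the opposite genotype, and the 3 undoubted Tfr1-null libraries have more Tfrc middle signal and less Ftl1/Ftl1-ps2 signal than the controls.

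Markers of other cells and of RNA quality were measured in the same 12 libraries, as log2 of the summed signal of each list. Dopaminergic markers summed to 15.60 to 15.67 in Tfr1-null and 15.78 to 15.83 in control libraries at 3 weeks, and to 16.26 to 16.56 in Tfr1-null and 16.62 to 16.68 in control libraries at 10 weeks. The groups did not overlap at either age, 0 of 8 of these genes were called, and their median difference was -0.16 at 3 weeks and -0.31 at 10 weeks. Microglial markers, from cells rich in ferritin, summed to 10.97 to 11.56 in Tfr1-null and 11.08 to 11.23 in control libraries at 3 weeks, which overlap. At 10 weeks they summed to 12.40 to 13.02 in Tfr1-null and 11.63 to 12.24 in control libraries, which do not, and none of the 10 was below background throughout a group. Among the 10 microglial genes only Cd68, a lysosomal protein of phagocytes, was called. It rose by 2.01 at 3 weeks (limma adjusted p = 0.000215) and by 3.87 at 10 weeks (limma adjusted p = 1.03e-06). Over all probe sets 0.797% were called at 3 weeks and 6.76% at 10 weeks. Of the 7 astrocyte and 5 measured oligodendrocyte markers 0 were called, and their sums overlapped between genotypes at both ages. Oligodendrocyte markers summed to 13.91 to 14.28 in Tfr1-null and 14.13 to 14.26 in control libraries at 3 weeks. At 10 weeks the sums were 14.61 to 14.99 in Tfr1-null and 14.51 to 15.10 in control libraries. The 3′ minus 5′ signal of Gapdh, a sign of RNA length, was 0.556 to 0.597 in Tfr1-null and 0.635 to 0.742 in control libraries at 3 weeks, which do not overlap, and 0.575 to 0.665 in Tfr1-null and 0.606 to 0.708 in control libraries at 10 weeks, which do. The same measure of Actb overlapped at both ages, at -0.08 to -0.04 in Tfr1-null and -0.09 to -0.02 in control libraries of 3 weeks, and at -0.32 to -0.17 in Tfr1-null and -0.49 to -0.25 in control libraries of 10 weeks. The part of these markers and of RNA length in the ferritin result was not tested.

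The 3 regulators came next, and none was called in either set of libraries. Fbxl5 encodes the iron-stabilised ubiquitin ligase subunit that marks IRP2 for breakdown when iron is plentiful. Its probe set read 10.27, 9.76, 9.79 and 9.54 in Tfr1-null libraries of 3 weeks, against 10.38, 10.76 and 10.56 in controls, so every Tfr1-null library lay below every control. Without the doubtful library the means were 9.70 ± 0.14 in Tfr1-null and 10.57 ± 0.19 in control libraries (SD, n = 3 each), or 0.547 times the control level (difference -0.87, SE 0.38, limma adjusted p = 0.582). At 10 weeks Fbxl5 read 11.11, 10.74 and 11.19 in Tfr1-null libraries, against 10.84, 11.36, 13.10 and 11.41 in controls. Control library 3 stood far above the rest. The 10-week difference over 12 libraries was -0.94 (SE 0.38, adjusted p = 0.171), and without control library 3 it was -0.37. That library also widened the spread shared by both ages, and without it the 3-week difference passed the test with an adjusted p of 0.0218. Fbxl5 also passed at 3 weeks when the libraries of that age were fitted alone, with an adjusted p of 0.0244.

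Ireb2 encodes IRP2, the iron regulatory protein whose amount is set by its breakdown. It read 9.90, 10.45, 10.25 and 10.25 in Tfr1-null libraries of 3 weeks, against 10.08, 9.81 and 9.85 in controls. The doubtful library was among the controls and the other 3 Tfr1-null libraries were above them. Over 12 libraries the difference at 3 weeks was 0.40 (SE 0.17, adjusted p = 0.555), or 1.32 times the control level. At 10 weeks Ireb2 read 10.65, 10.92 and 10.80 in Tfr1-null libraries, against 11.11, 11.45, 10.74 and 10.92 in controls, which overlap, with a difference of -0.24 (SE 0.17, adjusted p = 0.452). Without control 10 weeks 2 the 10-week difference was -0.04, and without control 10 weeks 3 it was -0.39. The limma test of the 10-week difference minus the 3-week difference gave -0.65 (SE 0.24, unadjusted p = 0.0216, adjusted p = 0.364) over 12 libraries. The ages also differ in sex pattern and array scale, which cannot be told apart from age here.

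Aco1 encodes IRP1, which is a cytosolic aconitase when it carries an iron-sulfur cluster and binds iron-responsive elements when it does not. Its brightest probe set, 1423644_at, read 8.72, 8.88, 8.67 and 8.77 in Tfr1-null libraries of 3 weeks, against 8.91, 8.79 and 8.56 in controls. The groups overlapped and differed by 0.02 over 12 libraries (SE 0.20, adjusted p = 1.00). Its values at 10 weeks were 9.23, 9.20 and 9.22 in Tfr1-null libraries, against 9.46, 9.33, 8.34 and 8.94 in controls, a difference of 0.34 over 12 libraries (SE 0.20, adjusted p = 0.370). The controls were widely spread there and the Tfr1-null libraries were not. Probe set 1456728_x_at had every Tfr1-null library above the 3 undoubted controls at 10 weeks, with a difference of 0.39 (SE 0.17, adjusted p = 0.211). The third probe set was dim and differed by -0.04 at 3 weeks and -0.22 at 10 weeks.

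**Figure D3:**
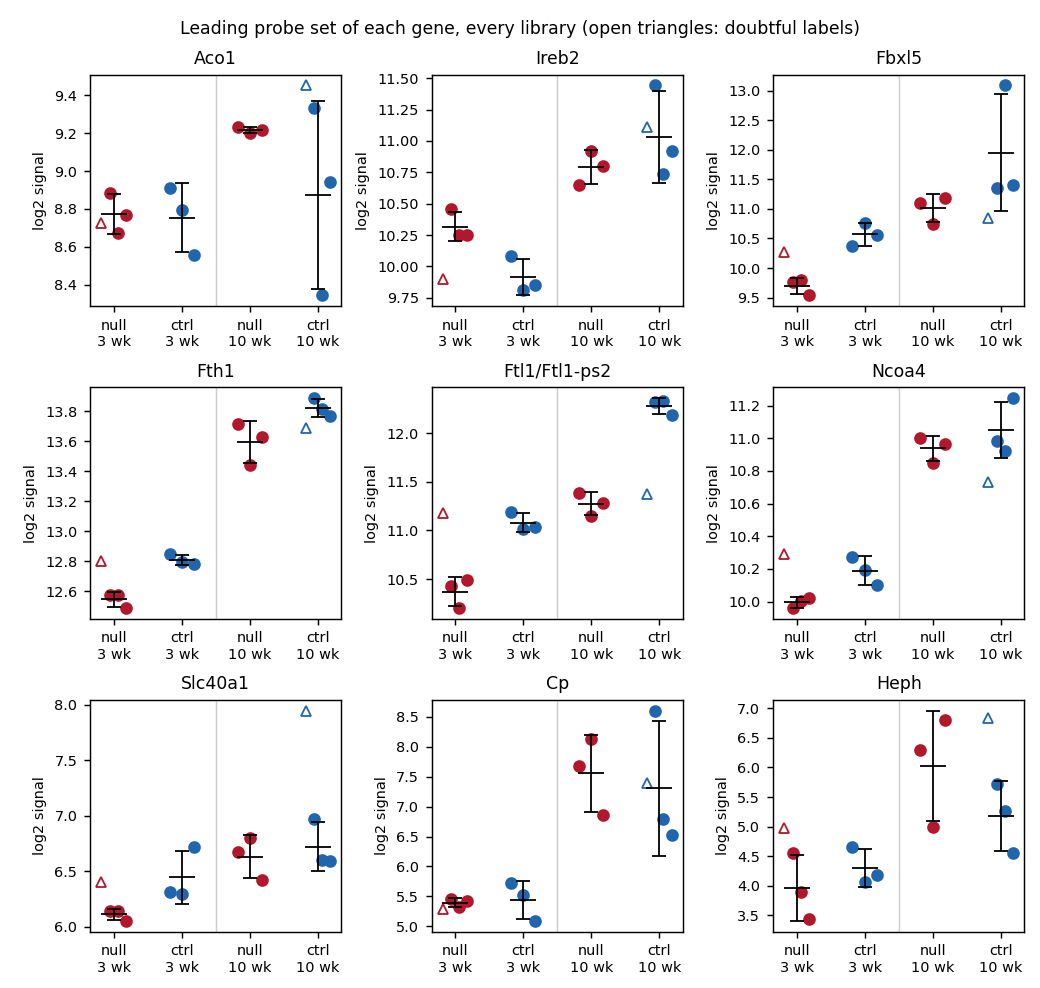
Log2 signal of the brightest probe set of each of the 9 genes, 1 panel per gene, with Tfr1-null libraries in red left of control libraries in blue at each age. Open triangles are the 2 doubtful libraries, and lines with bars are the mean and SD of the other 3 libraries of a group. Without the triangles, the Ftl1/Ftl1-ps2, Fth1 and Fbxl5 panels have the genotypes apart at both ages. The Ireb2, Ncoa4 and Slc40a1 panels have them apart at 3 weeks only, and the Aco1, Cp and Heph panels have them overlapping at both.

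Ncoa4 encodes the cargo receptor that takes ferritin to autophagosomes. Its brightest probe set, 1420808_at, read 10.29, 9.96, 10.00 and 10.02 in Tfr1-null libraries of 3 weeks, against 10.27, 10.19 and 10.10 in controls. The 3 undoubted Tfr1-null libraries lay below the controls, with a difference of -0.19 (SE 0.10, adjusted p = 0.761). At 10 weeks it read 11.00, 10.85 and 10.97 in Tfr1-null libraries, against 10.73, 10.98, 10.92 and 11.25 in controls, which overlap (difference -0.11, adjusted p = 0.589 over 12 libraries). The other probe set, 1450006_at, differed by -0.21 at 3 weeks (adjusted p = 0.928) and by -0.06 at 10 weeks (adjusted p = 0.868).

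Slc40a1 encodes ferroportin, the only known exporter of iron from mammalian cells. Its brightest probe set, 1417061_at, read 6.40, 6.14, 6.14 and 6.05 in Tfr1-null libraries of 3 weeks, against 6.31, 6.30 and 6.72 in controls. Probe set 1448566_at read 6.88, 5.13, 6.15 and 5.94 in Tfr1-null libraries, against 6.50, 6.40 and 7.07 in controls. By both, the 3 undoubted Tfr1-null libraries lay below every control and the doubtful one among them. The differences over 12 libraries were -0.33 (SE 0.15, adjusted p = 0.627) and -0.92 (SE 0.30, adjusted p = 0.333), the second being 0.530 times the control level. Endothelial markers, of cells that also express ferroportin, summed to 8.82 to 8.85 in Tfr1-null and 9.01 to 9.36 in control libraries at 3 weeks, with 0 of 7 called and none below background throughout a group. Their part in the Slc40a1 values was not tested.

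At 10 weeks the Slc40a1 groups overlapped. Probe set 1417061_at read 6.67, 6.80 and 6.42 in Tfr1-null libraries, against 7.95, 6.97, 6.60 and 6.59 in controls, where the highest value belonged to the doubtful control. Probe set 1448566_at read 6.46, 7.03 and 6.26 in Tfr1-null libraries, against 6.88, 6.85, 7.39 and 6.82 in controls. The differences over 12 libraries were -0.09 (adjusted p = 0.786) and -0.43 (SE 0.30, adjusted p = 0.449). Endothelial markers at that age summed to 9.92 to 10.01 in Tfr1-null and 9.60 to 9.97 in control libraries, which overlap.

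Cp encodes ceruloplasmin, the ferroxidase that oxidises iron as it leaves the cell and that astrocytes carry as a membrane-anchored form. Its brightest probe set, 1455393_at, read 5.29, 5.46, 5.31 and 5.41 in Tfr1-null libraries of 3 weeks, against 5.72, 5.52 and 5.08 in controls. At 10 weeks it read 7.68, 8.12 and 6.86 in Tfr1-null libraries, against 7.39, 8.60, 6.80 and 6.52 in controls. The groups overlapped at both ages, and the 10-week libraries of each genotype were spread over more than 1 log2 unit. Over 12 libraries the 8 Cp probe sets differed by -0.09 to 0.52 at 3 weeks and by -0.64 to 0.78 at 10 weeks, and 0 of 8 were called. The ends of the 10-week range came from 1448735_at and 1448734_at, which each had libraries under background at that age. Probe set 1417496_at alone had all 3 undoubted Tfr1-null libraries above the controls at 3 weeks, with a difference of 0.43 (SE 0.35, adjusted p = 0.935). Probe set 1441326_at was below background in all 14 libraries. Astrocyte markers overlapped between genotypes, at 14.25 to 14.71 in Tfr1-null and 14.07 to 14.55 in control libraries of 10 weeks.

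Choroid plexus cells also make ceruloplasmin. Ependymal and choroid plexus markers summed to 7.88 to 7.94 in Tfr1-null and 8.10 to 8.28 in control libraries at 3 weeks, and to 8.62 to 8.90 in Tfr1-null and 8.93 to 10.02 in control libraries at 10 weeks. Of these 6 genes 1 was called at 10 weeks, where 6.76% of all probe sets were. This was Kcne2 (limma adjusted p = 0.0282). It was below background in the Tfr1-null libraries and at least 1.18-fold lower there than in controls. Erythrocyte markers, 2 of 5 measured, overlapped at 3 weeks and summed at 10 weeks to 7.15 to 7.51 in Tfr1-null and 7.42 to 7.62 in control libraries, with 0 called. The part of these cells in the Cp values was not tested.

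Heph encodes hephaestin, a membrane ferroxidase related to ceruloplasmin. Its only probe set read 4.97, 4.55, 3.89 and 3.44 in Tfr1-null libraries of 3 weeks, against 4.66, 4.06 and 4.18 in controls. In animals of 10 weeks Heph read 6.30, 4.99 and 6.79 in Tfr1-null libraries, against 6.83, 5.73, 5.26 and 4.56 in controls. Libraries under background were 2 of 4 Tfr1-null and 2 of 3 control at 3 weeks, and 1 of 3 Tfr1-null and 2 of 4 control at 10 weeks. The groups overlapped at both ages, with differences over 12 libraries of -0.34 (SE 0.46, adjusted p = 0.992) and 0.84 (SE 0.46, adjusted p = 0.317).

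Read over the 23 probe sets, the differences at 12 libraries were centred near those of the whole array. Their median was -0.09 at 3 weeks and -0.09 at 10 weeks, against 0.00 over all probe sets at both ages. At 3 weeks 9 of the 23 had all Tfr1-null libraries below all controls, where 9.37% of all probe sets did, and 2 had them above, where 10.7% did. At 10 weeks 5 had them below, where 9.55% did, and 1 had them above, where 9.23% did. Probe sets of 1 gene share their transcripts, so these are not 23 independent measurements. An unadjusted p under 0.05 was reached by 7 of 23 at 3 weeks, where 8.09% of all did, and by 6 of 23 at 10 weeks, where 22.2% did. As labelled, 1 of the 23 had all Tfr1-null libraries below all controls at each age, Fbxl5 at 3 weeks and an Ftl1/Ftl1-ps2 probe set at 10 weeks, where 3.69% and 4.27% of all did. None of the 23 had them above there, where 3.08% of all did at 3 weeks and 4.4% at 10 weeks.

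**Figure D4:**
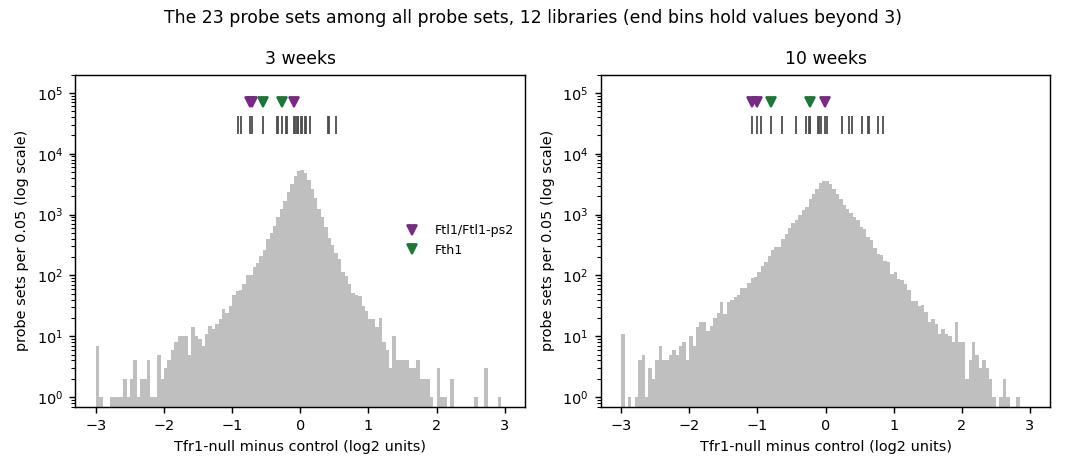
Histogram of the Tfr1-null minus control difference of all 45037 probe sets over 12 libraries, in log2 units, at 3 and at 10 weeks, with the number of probe sets on a logarithmic vertical axis. Ticks mark the 23 probe sets of the 9 genes and triangles those of Ftl1/Ftl1-ps2 and Fth1. Most ticks lie in the central mass, and the ferritin triangles reach -1.08 at 10 weeks, which is short of the extremes of the array.

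Whether a difference between genotypes itself differed between the ages was tested in the same fit. The male pattern was seen in 1 of 7 libraries of 3 weeks and 7 of 7 of 10 weeks, and array scale differed too. Neither can be told apart from age in this test. Of the 23 probe sets 0 were called over 12 libraries, where 0.14% of all probe sets were, and 2 had an unadjusted p under 0.05, where 10.7% did. These were Ireb2, given above, and the Ftl1/Ftl1-ps2 probe set 1418364_a_at, whose fall was larger at 10 weeks by 0.34 with an adjusted p of 0.463. Over 14 libraries 0 of 23 were called, where 0.0% of all were, and 1 had an unadjusted p under 0.05, where 6.88% did. The larger falls at 10 weeks of 1422302_s_at, 1418364_a_at and Fth1 1427021_s_at are therefore not shown to differ from those at 3 weeks. Over 12 libraries the other ferritin probe sets did not fall further at 10 weeks. Fth1 1448771_a_at differed by -0.263 at 3 weeks and -0.227 at 10 weeks, and Ftl1/Ftl1-ps2 1422301_at by -0.087 and -0.005.

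The 2 doubtful libraries bore on these genes unequally. The library labelled Tfr1-null 3 weeks 1 was nearer to the control mean than to the mean of the other Tfr1-null libraries at 18 of the 23 probe sets, or 78.3%, where 61.5% of all probe sets were. It was nearer at 8 of the 9 brightest probe sets, 1 per gene. The library labelled control 10 weeks 1 was nearer to the Tfr1-null mean at 12 of the 23, or 52.2%, where 56.3% of all probe sets were, and at 6 of the 9 brightest. As labelled, the brightest probe sets at 3 weeks differed by -0.73 for Fbxl5, 0.30 for Ireb2, 0.01 for Aco1, -0.20 for Fth1, -0.12 for Ncoa4, -0.26 for Slc40a1, -0.07 for Cp and -0.09 for Heph. The adjusted p was 1.00 for each of them. At 10 weeks as labelled they differed by -0.67 for Fbxl5, -0.26 for Ireb2, 0.20 for Aco1, -0.19 for Fth1, -0.03 for Ncoa4, -0.40 for Slc40a1, 0.23 for Cp and 0.43 for Heph, with adjusted p-values of 0.341 to 0.925. Each of these signs was the same over 12 libraries.

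Other genes of iron handling give the setting over the same 12 libraries. In a list of 16 genes of iron import and reduction, 3 were called higher and 2 lower at each age. Their median difference was 0.05 at 3 weeks and 0.10 at 10 weeks. Over all probe sets 0.797% were called at 3 weeks and 6.76% at 10 weeks. Tfrc, which was used to choose the libraries, and Slc11a2, the ferrous iron importer DMT1, were higher at both ages, and Slc11a2 rose by 0.99 at 10 weeks (adjusted p = 0.00365). Tfr2, a second transferrin receptor gene, was lower at both, and fell by 0.94 at 10 weeks (adjusted p = 0.0113). The ferrireductase Steap1 was below background in controls and at least 3.65-fold higher in Tfr1-null libraries at 3 weeks (adjusted p = 0.00454) and at least 2.20-fold higher at 10 weeks (adjusted p = 0.00856). The related Steap4 fell by 1.37 at 3 weeks (adjusted p = 0.00514). At 10 weeks it was below background in Tfr1-null libraries and at least 3.23-fold lower than in controls (adjusted p = 0.000115), bounds being set at the 25th percentile of each array. Of 7 measured transcripts other than the 9 genes with an iron-responsive element, Tfrc and Slc11a2 were the 2 called, and the medians were 0.11 at 3 weeks and 0.21 at 10 weeks. Because the 12 libraries were chosen by Tfrc, its calls are counted in both lists as a description only. In 14 libraries 0 genes of these lists were called.

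Partners of ferritin and of the regulators, 14 measured, held 0 calls at 3 weeks, where 0.797% of all probe sets were called. At 10 weeks, where 6.76% of all were called, they held 2, both higher. These were Hephl1, a relative of hephaestin, by 0.73 (adjusted p = 0.00918), and Cul1, the scaffold of the ligase in which FBXL5 works, by 0.34 (adjusted p = 0.0425). With the smallest p at 3 weeks, Atg9a of the autophagosome membrane differed by 0.26 (adjusted p = 0.341) and Gabarapl2, which docks cargo receptors, by -0.19 (adjusted p = 0.845). Mitochondrial ferritin, Ftmt, was below background in every group. Of 9 measured genes of hepcidin and systemic iron control 0 were called, and hepcidin itself, Hamp, the liver hormone that removes ferroportin from the membrane, was below background in every group. Hfe, which helps set hepcidin in the liver, differed by -1.23 at 3 weeks (adjusted p = 0.207) and by -0.79 at 10 weeks (adjusted p = 0.203). Hjv, a BMP co-receptor, differed by -0.53 at 3 weeks (adjusted p = 0.620), and Neo1, which binds it, by -0.39 at 10 weeks (adjusted p = 0.243).

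NRF2 is a transcription factor that raises both ferritin genes and antioxidant enzymes under oxidative stress. The list of 10 NRF2 genes also held the repressor Bach1. At 3 weeks 1 of the 10 was called higher and 1 lower, where 0.797% of all probe sets were called. At 10 weeks 3 were called higher, Bach1 among them, and 1 lower, where 6.76% of all were. The medians were -0.13 and 0.11. Hmox1, which frees iron from heme, rose at both ages, by 2.14 at 10 weeks (adjusted p = 0.00180). Nqo1, a quinone reductase, fell by 2.06 at 3 weeks (adjusted p = 0.000189) and by 1.23 at 10 weeks (adjusted p = 0.00153). Srxn1, which repairs peroxiredoxins, rose by 1.02 at 10 weeks (adjusted p = 0.00178), and Bach1, a repressor of Hmox1 and the ferritin genes, rose by 0.86 (adjusted p = 0.00548). In 14 libraries 0 of these were called.

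The genes whose values over the 14 libraries lay nearest to a member's were found by root mean square distance after centring each age, over the 3 members with the smallest p. For Ftl1/Ftl1-ps2 these were Snhg4 at 0.144, Igsf1 at 0.155 and Ogdh at 0.166 log2 units, where the median distance over 16320 genes was 0.481. Snhg4, a small nucleolar RNA host gene, differed by -0.84 at 3 weeks and by -1.04 at 10 weeks over 12 libraries. Ogdh, a subunit of the oxoglutarate dehydrogenase complex, differed by -0.61 and -0.71, and Igsf1 by -0.76 and -1.28. For Fth1 they were Cops6, Dip2a and Btbd3, at 0.0599 to 0.0729, where the median was 0.245. For Fbxl5 they were Hspb6, Vnn1 and Shkbp1, at 0.213 to 0.234, where the median was 0.630. The distance is a description, with no test, and genotype differences near the member's own follow from choosing genes by it.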

How the data were processed

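Ribosome-bound mRNA of dopaminergic neurons was measured on 14 Affymetrix mouse arrays, from 50 ng of RNA amplified with the NuGEN Ovation V2 system, per the labels' protocols. The deposited values are log2 signals, made by RMA in Partek 6.5 per the submitters' processing notes. They were used as deposited. The annotation given here names 1 gene for 34958 of 45101 probe sets, several for 932 and none for 9211. The 64 array controls were left out of the tests. Depth does not apply to arrays, whose number limits precision.

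Libraries were grouped by title and genotype. Limma 3.58.1 (lmFit, eBayes, default settings, in R 4.3.3) fitted 4 group means with 1 spread per probe set, with Benjamini-Hochberg adjustment over 45037 probe sets. Residual degrees of freedom were 10 (14 libraries) and 8 (12 libraries), with a prior of 2.62. SE is the moderated standard error. Limma was tested on simulated data.

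Each gene is led by its brightest probe set, by mean signal over the 14 arrays. The text names all member probe sets, Tfrc, up to 4 called genes per list and age or 2 with the smallest p, and 3 nearest genes for 3 members. The members, lists and the 12 libraries were chosen with earlier results of these data known. Promoters came from RefSeq. Alternatives tried were each library left out, the replicate number as a block, array weights, median shift and quantile normalization within an age, a filter on dim probe sets, 1 probe set per gene, a trended robust prior, and each age alone. Python 3.11.15, pandas 2.3.3, numpy 2.4.6 and matplotlib 3.10.9 were used. No genome build for the arrays' probes is given in the sources used here.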

Additional observations from a re-analysis of the deposited data

Results flagged for a closer look

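Groups of 4 libraries were searched for a single library far from the others, 46 groups in all over the 23 probe sets, and chance marks about 1 in 20 of them. In 6 a library stood apart. In 3 of these it was a library with a doubtful label. Control 10 weeks 1 was the lowest control for Fth1 (1427021_s_at), at 12.41, and for Ftl1/Ftl1-ps2 (1422302_s_at), at 11.38. Tfr1-null 3 weeks 1 was the highest Tfr1-null library for Ncoa4 (1450006_at), at 10.57. In the others, Tfr1-null 3 weeks 2 was the highest for Aco1 (1456728_x_at), at 8.81, Tfr1-null 3 weeks 3 was the highest for Cp (1448734_at), at 6.07, and control 10 weeks 3 was the highest for Slc40a1 (1448566_at), at 7.39. None of the reported calls rests on the last 3 probe sets.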

How the results depend on the processing

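The count of called probe sets rests first on which libraries enter. It was 0 at 3 weeks, 0 at 10 weeks and 0 for the difference between ages over 14 libraries, and 2, 3 and 0 over 12. With each library left out in turn, the 14-library count stayed at 0 at 3 weeks and ranged from 0 to 3 at 10 weeks, with 3 reached without control 10 weeks 1 and 1 without control 10 weeks 2. The 12-library count ranged from 0 to 3 at 3 weeks and from 3 to 5 at 10 weeks. At 3 weeks it was 0 without control 1, control 3 or Tfr1-null 3, 1 without Tfr1-null 2, and 3 without control 10 weeks 3, and at 10 weeks it was 5 without control 2. The brightest Ftl1/Ftl1-ps2 probe set then had adjusted p-values at 3 weeks of 0.0743 without control 1, 0.0551 without control 3, 0.0503 without Tfr1-null 2 and 0.0610 without Tfr1-null 3.

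With the replicate number as a block, the 12-library count was 0 at both ages, and that probe set had an adjusted p of 0.549 at 3 weeks and 0.126 at 10 weeks. Deviations from the means of the groups as labelled correlated between -0.05 and 0.15 for libraries with the same number. For libraries with different numbers they correlated between -0.26 and 0.20. Pairing by number is therefore not shown, and these few correlations, which include the doubtful libraries, cannot exclude it. Array weights gave 5 calls at 3 weeks, with Fbxl5 at an adjusted p of 0.0377 and the brightest Fth1 probe set at 0.0459. Fitting each age alone gave 3 at 3 weeks, with Fbxl5 at 0.0244, and 2 at 10 weeks, with Fth1 (1427021_s_at) at 0.105. Testing 1 probe set per gene gave 1 at each age, from fewer probe sets by construction. The cause of the other changes was not tested. No difference changed sign while called. Signal near background limits Heph, the Cp probe sets 1441326_at and 1448735_at and, at 10 weeks, Cp 1448734_at. Cp 1417496_at and Aco1 1447080_at also read under background in some libraries of 10 weeks.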
